A study of Mus musculus with 6 samples.

Results

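AP-1 is a transcription factor built from paired subunits. The genes of 10 subunits (Jun, Junb, Jund, Fos, Fosb, Fosl2, Batf, Batf3, Atf3 and Maff) were followed in sorted CD8+ T cells of tumor-draining lymph nodes. They were chosen by symbol, with earlier results of these data known, and all 10 were found among the 49315 genes of the deposited count table. Bulk RNA was sequenced from wild-type female C57Bl6/J mice bearing B16F10 melanoma, a transplantable mouse tumor line that 1 label field spells B26F10. Treatment was given once, at a tumor size of 50 to 100 mm3, and the nodes were taken on day 5. The combination group received HCW9218 subcutaneously and anti-PD1 intraperitoneally (n = 3 mice), and the monotherapy group received HCW9218 subcutaneously alone (n = 3 mice). HCW9218 is named in the series title as an immunotherapeutic complex of TGF-βRII and IL-15. Both groups bore tumors and received HCW9218, so each comparison concerns what differed when anti-PD1 was added, not what HCW9218 did.

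JUN, FOS, BATF, ATF and MAF proteins share a basic region that contacts DNA and a leucine zipper through which they pair. JUN proteins pair with each other or with FOS proteins, whereas FOS proteins rely mainly on a JUN partner. In T cells, JUN-FOS dimers act with NFAT downstream of the antigen receptor and CD28, and several of their genes are immediate early genes, transcribed from factors already present when a stimulus arrives. BATF proteins also pair with JUN proteins and bind composite sites together with IRF4 or IRF8. ATF3 is induced by stress, and MAFF is a small MAF protein without a transactivation domain.

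The promoter sequences of Jun, Junb, Fos and Maff are shown because these were the 4 tested subunit genes whose combination libraries all lay below all monotherapy libraries. Each is the 250 bases before the RefSeq transcription start on GRCm38.p6, read 5′ to 3′ on the strand of the gene. Capitals mark the AP-1 site TGACTCA, the cAMP response element TGACGTCA, the AP-1-like sites TGACATCA and TTACCTCA, or the shorter TGACG, searched on both strands, and TGACG also lies within TGACGTCA. A serum response CArG box was searched as well.
Jun, chr4:95052223-95052472, minus strand: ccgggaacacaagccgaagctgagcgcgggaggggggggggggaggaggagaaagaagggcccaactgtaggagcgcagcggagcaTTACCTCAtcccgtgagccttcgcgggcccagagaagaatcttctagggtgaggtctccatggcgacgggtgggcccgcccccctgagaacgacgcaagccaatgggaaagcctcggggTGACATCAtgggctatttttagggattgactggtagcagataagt
Junb, chr8:84978749-84978998, minus strand: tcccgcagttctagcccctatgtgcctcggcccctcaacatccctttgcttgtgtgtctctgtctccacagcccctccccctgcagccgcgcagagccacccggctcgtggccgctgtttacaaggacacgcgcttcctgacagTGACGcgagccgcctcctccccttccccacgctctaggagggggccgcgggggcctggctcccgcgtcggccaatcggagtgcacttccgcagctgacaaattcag
Fos, chr12:85473640-85473889, plus strand: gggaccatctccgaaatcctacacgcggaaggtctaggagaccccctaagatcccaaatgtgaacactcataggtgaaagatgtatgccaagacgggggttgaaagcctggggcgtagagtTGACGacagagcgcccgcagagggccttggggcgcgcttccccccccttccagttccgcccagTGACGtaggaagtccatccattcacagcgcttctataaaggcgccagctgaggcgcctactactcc
Maff, chr15:79347270-79347519, plus strand: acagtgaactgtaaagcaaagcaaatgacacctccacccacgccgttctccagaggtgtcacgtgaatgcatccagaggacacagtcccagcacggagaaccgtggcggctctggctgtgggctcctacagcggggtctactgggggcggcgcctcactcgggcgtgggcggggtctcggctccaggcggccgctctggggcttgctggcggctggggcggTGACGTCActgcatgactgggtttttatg
The Jun window held TGACATCA 45 bases and TTACCTCA 164 bases before the start, the AP-1-like pair known from the human JUN promoter, through which JUN acts on its own gene. TGACATCA was found in 2.93% and TTACCTCA in 0.728% of the 32851 promoter windows searched. Of the 10 subunit genes, 2 had TGACATCA, Jun and, in another of its windows, Maff, also 45 bases before the start. The Junb window held TGACG 106 bases and the Fos window held it 129 and 66 bases before the start. The Maff window, 1 of 3 RefSeq windows for that gene, held TGACGTCA 29 bases before the start, a sequence found in 1.55% of all windows. TGACG was present in a window of 6 of the 10 subunit genes (Junb, Fos, Fosb, Batf, Atf3 and Maff) and in 17.8% of all windows. Neither TGACTCA, found in 4.46% of all windows, nor a CArG box, found in 1.47%, was present in any of the 12 windows of the 10 genes. Sequence more than 250 bases before a start was not searched, so the genes may carry such sites further upstream. The Jund window, chr8:70697489-70697738, ends before the gene start at 70698949 in the annotation of the counts. These letter matches describe the windows, and no binding was measured.

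Libraries held 34568074 to 40101346 counts. Levels between groups are given as CPM, counts divided by TMM-scaled library size, and tests as edgeR's quasi-likelihood test over the 15142 genes that passed the count filter, with Benjamini-Hochberg adjustment over all of them and a threshold of 0.05. Fold changes are combination over monotherapy with their standard error. Of the 10 subunit genes, 9 passed the filter and Atf3 did not. The CD8 T cell markers Cd3d, Cd3e, Cd3g, Cd8a and Cd8b1 summed to 3767 to 5029 CPM in combination and 4125 to 5078 CPM in monotherapy libraries. Summed markers of CD4 T, B, myeloid, dendritic and stromal cells overlapped between the groups and reached at most 171 CPM. Taken singly, the dendritic markers Itgax (log2 fold change 0.93 ± 0.22, edgeR adjusted p = 0.114) and Xcr1 (0.46 ± 0.25, adjusted p = 0.751) were higher in every combination library. The stromal marker Pecam1 was lower in each (-0.21 ± 0.13, adjusted p = 0.825). All other genes of these lists overlapped. The sums did not overlap for 3 other lists. The 3 NK markers, mostly Klre1, summed to 10.7 to 19.0 CPM in combination and 5.55 to 7.21 CPM in monotherapy libraries. Klre1 by itself did not overlap between the groups and passed the threshold (log2 fold change 1.65 ± 0.25, edgeR adjusted p = 0.0161), while Ncr1 and Klrb1c overlapped. The 6 melanocyte markers, mostly Pmel, summed to 30.3 to 53.8 CPM in combination and 21.9 to 28.6 CPM in monotherapy libraries. Each of these 6 genes overlapped between the groups when taken singly. The 4 erythroid markers summed to 1.00 to 1.76 CPM in combination and 2.10 to 6.96 CPM in monotherapy libraries. Of these, Hba-a1 and Hbb-bs were lower in every combination library, and Hba-a2 and Alas2 overlapped. The part of NK, melanocyte and erythroid marker RNA in the AP-1 results was not tested. Combination replicates 2 and 3 stood apart in Dct and Tyrp1, which encode melanin synthesis enzymes. Their summed counts were 0, 582 and 743 in combination replicates 1, 2 and 3, against 1, 0 and 0 in monotherapy replicates 1, 2 and 3. A covariate of Dct and Tyrp1 therefore nearly marks combination replicates 2 and 3. The fit with it rests mainly on combination replicate 1 against monotherapy, like the fit that leaves those 2 libraries out. These fits are not separate checks, and neither tests the part of melanocyte RNA in a fold change.

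With the combination, Jun fell, and it was the 1 subunit gene of the 9 tested that passed the adjusted threshold, against 0.132% of all tested genes called lower. No subunit gene rose, against 0.951% of all tested genes called higher and 1.08% called in either direction. In DESeq2 3 subunit genes fell (Jun, Junb and Fos), against 0.492% of genes lower, and 0 rose, against 1.91% higher. The same 3 fell in edgeR with no count filter, against 0.347% lower, and 0 rose, against 1.04% higher. In limma-voom 0 fell and 0 rose, against 0.0925% lower and 0.819% higher. Junb, Fos and Maff had lower values in every combination library without passing, while Jund, Fosb, Fosl2, Batf and Batf3 overlapped between the groups. The 3 combination libraries lay below the 3 monotherapy libraries for 4 of the 9 tested genes, against 7.54% of all tested genes, and above them for 0, against 7.17%. The same 4 genes had an unadjusted p under 0.05 in the lower direction, against 3.39% of all tested genes, and 0 had one in the higher direction, against 4.61%. The median log2 fold change of the 9 was -0.49, and that of all tested genes was -0.00. Because the subunit genes were chosen with earlier results of these data known, their counts beside these shares are description, not a test. Because RNA came from sorted cells in bulk, fewer cells expressing a gene and less of its RNA per cell cannot be told apart.

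**Figure D1:**
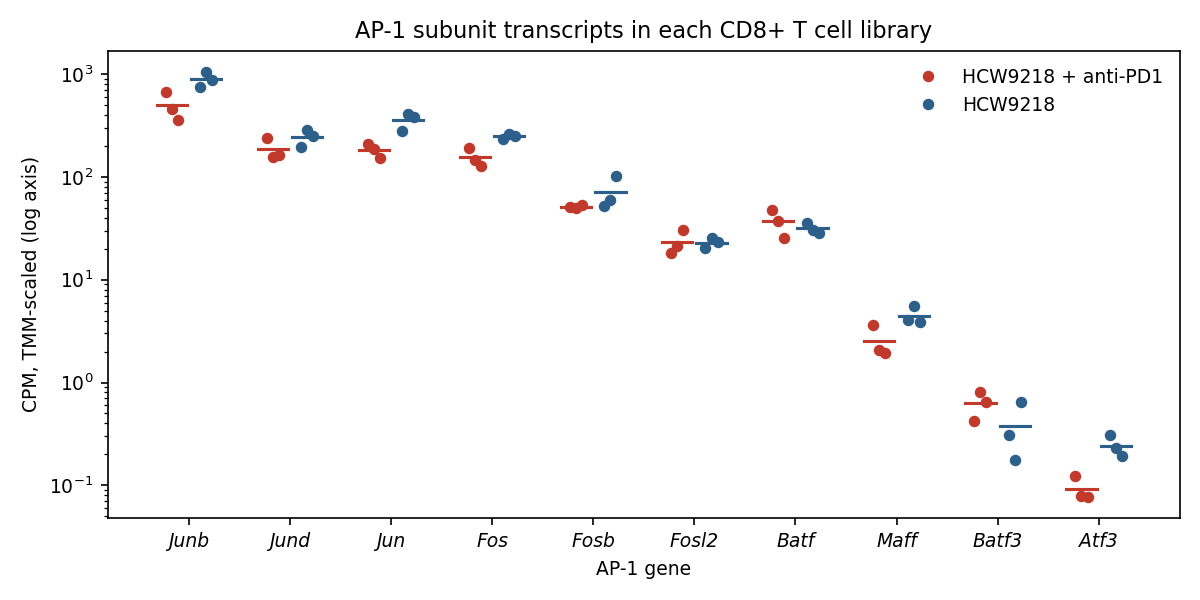
Level of each AP-1 subunit gene in TMM-scaled CPM on a log axis, with 1 point per library, combination left and monotherapy right, and horizontal bars at the group means. Jun, Junb, Fos, Atf3 and Maff show no overlap between the groups, and the other 5 genes overlap.

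Jun encodes c-JUN, a strong transactivator and the classical partner of FOS. It lies on chromosome 4 (95049034 to 95052222, minus strand, a single exon in the annotation used). Jun was measured at 211, 187 and 152 CPM in combination replicates 1, 2 and 3, against 281, 411 and 383 CPM in monotherapy replicates 1, 2 and 3. The highest combination library was below the lowest monotherapy library. Jun averaged 183 ± 29.6 CPM in the combination group and 359 ± 68.5 CPM in the monotherapy group (SD, n = 3 each), so the combination mean was 51.1% of the monotherapy mean. The log2 fold change was -0.97 ± 0.19 (edgeR adjusted p = 0.0478), which placed Jun at rank 162 of 15142 by p. The call sat near the threshold. It was lost on leaving out combination replicate 2 (edgeR adjusted p = 0.215) or monotherapy replicate 1, 2 or 3 (0.0746, 0.279 and 0.241), in limma-voom (0.0546), with a B cell marker covariate (0.21) and with a covariate of Dct and Tyrp1 (0.148). DESeq2 gave an adjusted p of 0.00014. The fold change stayed between -1.10 and -0.75 across all 17 alternatives. With both libraries that held Dct and Tyrp1 left out, which leaves 1 combination library assumed to vary like the others, it was -0.77 (edgeR adjusted p = 0.0403).

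Junb encodes JUNB, which restrains c-JUN on some promoters and takes part in T helper differentiation. Its locus is on chromosome 8 (84974484 to 84978718, minus strand). Junb stood at 677, 457 and 356 CPM in combination replicates 1, 2 and 3, against 752, 1049 and 879 CPM in monotherapy replicates 1, 2 and 3. All combination libraries were lower, but combination replicate 1 came close to monotherapy replicate 1, and the spread within each group was wide. Group means were 497 ± 164 and 893 ± 149 CPM in combination and monotherapy (SD, n = 3 each). The log2 fold change of -0.85 ± 0.25 did not pass in edgeR (adjusted p = 0.248) and passed in DESeq2 (adjusted p = 0.0205). It passed in edgeR without combination replicate 1 (adjusted p = 0.0244). The fold change was -0.39 with the Dct and Tyrp1 covariate (edgeR adjusted p = 0.385) and -0.41 without combination replicates 2 and 3. Both of these fits rest mainly on combination replicate 1. Junb overlaps exons of Prdx2 on the opposite strand, a gene with 16049 counts over the 6 libraries, and whether reads were assigned by strand is not given in the sources used here.

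Jund encodes JUND, the more broadly and steadily expressed JUN protein, and lies on chromosome 8 (70698949 to 70700616, plus strand). It had 239.7, 156 and 164 CPM in combination replicates 1, 2 and 3, against 195, 284 and 248 CPM in monotherapy replicates 1, 2 and 3. Combination replicate 1 exceeded monotherapy replicate 1, so the groups overlapped. The log2 fold change was -0.38 ± 0.20 (edgeR adjusted p = 0.747).

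Fos, a textbook immediate early gene, encodes c-FOS, which binds DNA mainly with a JUN partner. It lies on chromosome 12 (85473890 to 85477273, plus strand). Fos stood at 193, 147 and 127 CPM in combination replicates 1, 2 and 3, against 233, 261 and 248 CPM in monotherapy replicates 1, 2 and 3. The monotherapy libraries were close together, and all combination libraries lay below them. Means were 155 ± 33.6 CPM in combination and 247 ± 14.0 CPM in monotherapy (SD, n = 3 each). Fos did not pass, with -0.67 ± 0.17 on the log2 scale (edgeR adjusted p = 0.151). Like Junb, Fos passed in DESeq2 (adjusted p = 0.0158) and in edgeR without combination replicate 1 (adjusted p = 0.0181). Its fold change shrank to -0.36 with the Dct and Tyrp1 covariate (edgeR adjusted p = 0.269).

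Fosb, on chromosome 7 (19302696 to 19310051, minus strand), encodes an inducible FOS protein. It had 50.9, 49.3 and 53.5 CPM in combination replicates 1, 2 and 3, against 52.2, 60.2 and 103 CPM in monotherapy replicates 1, 2 and 3. Monotherapy replicate 3 alone was far above the rest. The log2 fold change of -0.49 ± 0.23 (edgeR adjusted p = 0.656) became -0.14 without that library. Fosl2, on chromosome 5 (32135801 to 32157842, plus strand), encodes FRA-2, a more slowly induced FOS protein. It had 18.4, 21.3 and 30.4 CPM in combination replicates 1, 2 and 3, against 20.2, 25.6 and 23.1 CPM in monotherapy replicates 1, 2 and 3. Its values overlapped fully, with a log2 fold change of 0.02 ± 0.19 (edgeR adjusted p = 0.99), and the sign changed under 6 of the 17 alternatives.

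Batf, on chromosome 12 (85686669 to 85709087, plus strand), encodes a short bZIP protein that pairs with JUN proteins, binds with IRF4 and is needed for effector CD8 T cell differentiation. It was measured at 47.8, 37.6 and 25.2 CPM in combination replicates 1, 2 and 3, against 35.6, 30.5 and 28.5 CPM in monotherapy replicates 1, 2 and 3. The combination libraries spanned the whole monotherapy range. The log2 fold change was 0.22 ± 0.22 (edgeR adjusted p = 0.932), and it ran from 0.01 without combination replicate 1 to 0.61 with the Dct and Tyrp1 covariate (adjusted p = 0.186). Without combination replicates 2 and 3 it was 0.59 (adjusted p = 0.0424), the 1 alternative of 17 in which Batf passed. Batf3, on chromosome 1 (191097847 to 191108945, plus strand), is best known from dendritic cells that cross-present antigen. It had 14, 31 and 25 counts in combination replicates 1, 2 and 3, against 11, 7 and 27 counts in monotherapy replicates 1, 2 and 3. At this depth no difference was detectable (log2 fold change 0.73 ± 0.54, edgeR adjusted p = 0.884).

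Atf3, on chromosome 1 (191170296 to 191218039, minus strand), encodes a stress-induced factor that often acts as a repressor. It had 4, 3 and 3 counts in combination replicates 1, 2 and 3, against 11, 9 and 8 counts in monotherapy replicates 1, 2 and 3. These counts were too low for the filter. In a fit with no count filter the log2 fold change was -1.36 (edgeR adjusted p = 0.762), although the groups did not overlap. Maff, on chromosome 15 (79347541 to 79359072, plus strand), encodes MAFF, which pairs with NRF2 and BACH proteins as well as with FOS. It had 3.62, 2.06 and 1.92 CPM in combination replicates 1, 2 and 3, against 4.04, 5.54 and 3.86 CPM in monotherapy replicates 1, 2 and 3. All combination libraries were lower, with combination replicate 1 just under the lowest monotherapy library. The log2 fold change was -0.83 ± 0.30 (edgeR adjusted p = 0.423), and -0.31 with the Dct and Tyrp1 covariate.

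**Figure D2:**
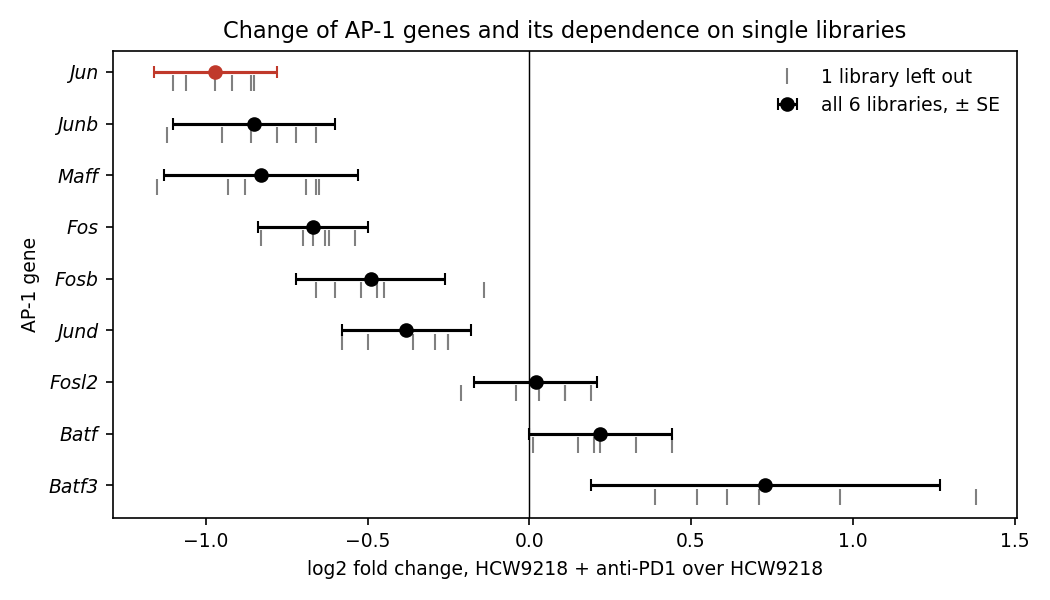
Log2 fold change (combination over monotherapy) of the 9 tested AP-1 subunit genes, with bars of 1 standard error, and ticks for the fits that leave out 1 library each. Jun at -0.97, in red, is the 1 gene with an adjusted p under 0.05, and Batf and Batf3 lie on the higher side.

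Libraries of a group did not vary independently from gene to gene. Monotherapy replicate 1 lay below its group mean of log2 CPM for 8 of the 9 tested genes. Combination replicate 1 had the highest CPM of its group for Jun, Junb, Jund, Fos, Batf and Maff. The order of libraries per gene length, given below, differed. Combination replicate 1 was also the combination library with 0 counts of Dct and Tyrp1 and with the highest ribosomal protein share, 17.5% of counts against 12.1% and 7.65% in combination replicates 2 and 3. In monotherapy replicates 1, 2 and 3 that share was 13.1%, 11.5% and 11.0%. Combination replicate 1 also had the lowest Malat1 share, 0.059% of counts against 0.107% to 0.165% in the other libraries. Combination replicate 3, the lowest library in CPM for Jun, Junb, Fos and Maff, had the lowest mitochondrial share. That was 1.73% of counts against 2.58% to 3.35% in the other libraries. The part of these shares in the AP-1 results was not tested.

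Levels between genes were compared per length, in TPM (length-normalised values that sum to the same total in every library), computed from the counts and the gene lengths in the files. In all 6 libraries Junb ranked 1, Jund 2, Batf 5, Fosb 6, Fosl2 7, Maff 8, Batf3 9 and Atf3 10. Junb averaged 577 ± 62.6 TPM in combination and 1107 ± 237 TPM in monotherapy, and Jund 305 ± 49.0 and 415 ± 98.1 TPM (SD, n = 3 each). Jun and Fos were neighbours whose order changed. Fos was above Jun in the 3 combination libraries and in monotherapy replicate 1, and Jun was above Fos in monotherapy replicates 2 and 3. Jun averaged 158 ± 11.6 TPM in combination and 321 ± 78.9 TPM in monotherapy, and Fos 179.8 ± 12.0 and 299 ± 34.5 TPM, so the 2 genes did not differ beyond their spread in monotherapy, and in combination their ranges met (146 to 169 TPM for Jun and 168 to 191 TPM for Fos). Batf averaged 103 ± 8.79 TPM in combination and 93.2 ± 4.40 TPM in monotherapy, and Fosb 23.2 ± 6.43 and 33.1 ± 14.4 TPM. The remaining subunits averaged less than Fosb in both groups. The order of libraries within the combination group was not the same as in CPM. In TPM, Jun was at 146, 158 and 169 and Fos at 181, 168 and 191 in combination replicates 1, 2 and 3. Junb was at 648, 534 and 548 and Maff at 3.76, 2.61 and 3.2 in the same libraries. Combination replicate 3 was thus the lowest for none of these genes in TPM.

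The 10 genes together came to 1429, 1247 and 1396 TPM in combination replicates 1, 2 and 3, against 1782, 2659 and 2403 TPM in monotherapy replicates 1, 2 and 3. Within that sum the 3 JUN genes made up most of the AP-1 subunit RNA, 76.5 ± 1.11% in combination and 80.5 ± 2.30% in monotherapy (SD, n = 3 each), and the 3 FOS genes 15.5 ± 1.25% and 15.0 ± 1.34%. Junb alone contributed 42.5 ± 3.07% in combination and 48.4 ± 1.35% in monotherapy, and Jund 22.4 ± 2.37% and 18.1 ± 0.799%. Batf made up 7.73%, 8.47% and 6.69% in combination replicates 1, 2 and 3, against 5.48%, 3.50% and 3.70% in monotherapy replicates 1, 2 and 3. The Batf share was higher in every combination library, while its own level overlapped between the groups. Shares of 1 sum depend on each other, so a gene's share can move when its level does not.

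**Figure D3:**
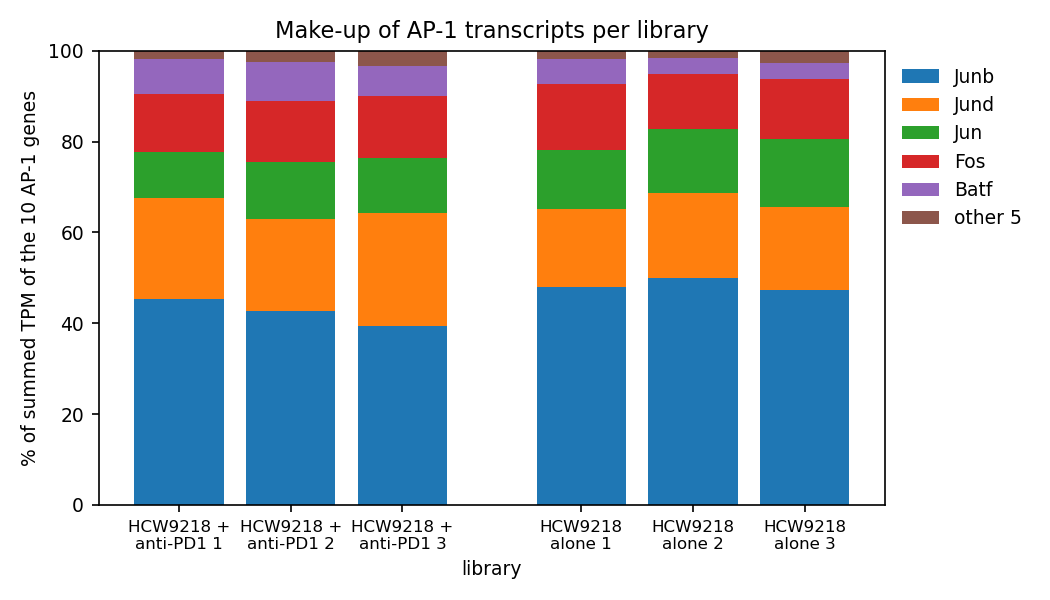
Share of each AP-1 subunit gene in the summed TPM of the 10 genes (percent), with 1 stacked bar per library, combination left and monotherapy right. Junb and Jund fill most of each bar, and the Batf segment spans 6.69% to 8.47% in combination and 3.50% to 5.48% in monotherapy libraries.

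Unequal change within a pair was tested directly for 2 ratios of counts per kilobase. The log2 ratio of Jun to Jund, an inducible against a steadily expressed JUN gene, was -1.12, -0.68 and -1.04 in combination replicates 1, 2 and 3, against -0.41, -0.40 and -0.31 in monotherapy replicates 1, 2 and 3. Every combination library was lower, by -0.57 between the means (exact two-sided permutation test, p = 0.1, and 0.1 after adjustment over both ratios). The log2 ratio of Batf to Fos, which both pair with JUN proteins, was -0.71, -0.66 and -1.04 in combination replicates 1, 2 and 3, against -1.41, -1.80 and -1.82 in monotherapy replicates 1, 2 and 3. This ratio was higher in every combination library, by 0.87 between the means (exact two-sided permutation test, p = 0.1, and 0.1 after adjustment). With 3 libraries a group the smallest p this test allows is 0.1, so neither ratio could pass the threshold.

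Among other immediate early genes, which share with Jun and Fos a rapid and brief response to stimuli, 6 of 31 fell, against 0.132% of all tested genes, and 0 rose, against 0.951%. This list, like the others below, was chosen with earlier results of these data known. Its counts beside the shares of all tested genes are therefore description, not a test of the list. Of the 31, 28 had a log2 fold change below 0, against 50.1% of all tested genes. The groups did not overlap, with combination lower, for 21 of the 31 genes, against 7.54% of all tested genes, and the median log2 fold change was -0.56, against -0.00 for all tested genes. Sik1, a kinase gene induced by cAMP signaling, stood at 33.8, 25.9 and 23.5 CPM in combination replicates 1, 2 and 3, against 65.0, 71.1 and 74.5 CPM in monotherapy replicates 1, 2 and 3 (log2 fold change -1.34 ± 0.16, edgeR adjusted p = 0.00517). Egr1, a zinc finger factor induced through MAPK signaling, had 46.3, 48.5 and 54.2 CPM in combination and 73.3, 88.9 and 90.2 CPM in monotherapy replicates 1, 2 and 3 (-0.76 ± 0.14, adjusted p = 0.032). In both genes the combination libraries were separated from the monotherapy libraries by more than the spread within either group. The other 4 that fell were Nr4a2, an orphan nuclear receptor (-1.08 ± 0.18, adjusted p = 0.0211), Plk2, a polo-like kinase (-1.43 ± 0.26, adjusted p = 0.0309), Ppp1r15a, which directs dephosphorylation of eIF2α (-0.88 ± 0.16, adjusted p = 0.0324), and Klf4, a Krüppel-like factor (-0.99 ± 0.18, adjusted p = 0.0328). The count of 6 was 13 without the count filter, where 0.347% of all genes were lower, and 13 in DESeq2, where 0.492% were. It was 1 with the Dct and Tyrp1 covariate, where 99 genes in all were lower, and 1 with the B cell covariate, where 5 were. It was also 1 without combination replicate 2 or any 1 monotherapy replicate, where 2 to 5 genes in all were lower. The summed level of the list was 2442 to 3178 CPM in combination and 3385 to 3979 CPM in monotherapy libraries.

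Genes that restrain AP-1 signaling, mainly dual-specificity phosphatases that switch off MAP kinases and ZFP36 proteins that destabilize AU-rich mRNAs, gave 0 of 12 calls in either direction in edgeR and limma-voom. Over all tested genes edgeR called 1.08%. DESeq2 gave 3 lower, against 0.492% of all genes. Of the 12, 5 had an unadjusted p under 0.05 in the lower direction, against 3.39% of all tested genes, and the median log2 fold change was -0.30. Dusp1 had 137, 85.0 and 64.1 CPM in combination replicates 1, 2 and 3, against 176, 234 and 200.2 CPM in monotherapy replicates 1, 2 and 3 (log2 fold change -1.09 ± 0.25, edgeR adjusted p = 0.111). Dusp6, a cytoplasmic MAP kinase phosphatase gene, averaged 59.1 ± 6.91 CPM in combination and 91.9 ± 4.18 CPM in monotherapy (-0.64 ± 0.13, adjusted p = 0.0647). Dusp5 (-0.59 ± 0.14, adjusted p = 0.113) and Dusp4 (-0.65 ± 0.24, adjusted p = 0.433) also lay lower in every combination library without passing.

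**Figure D4:**
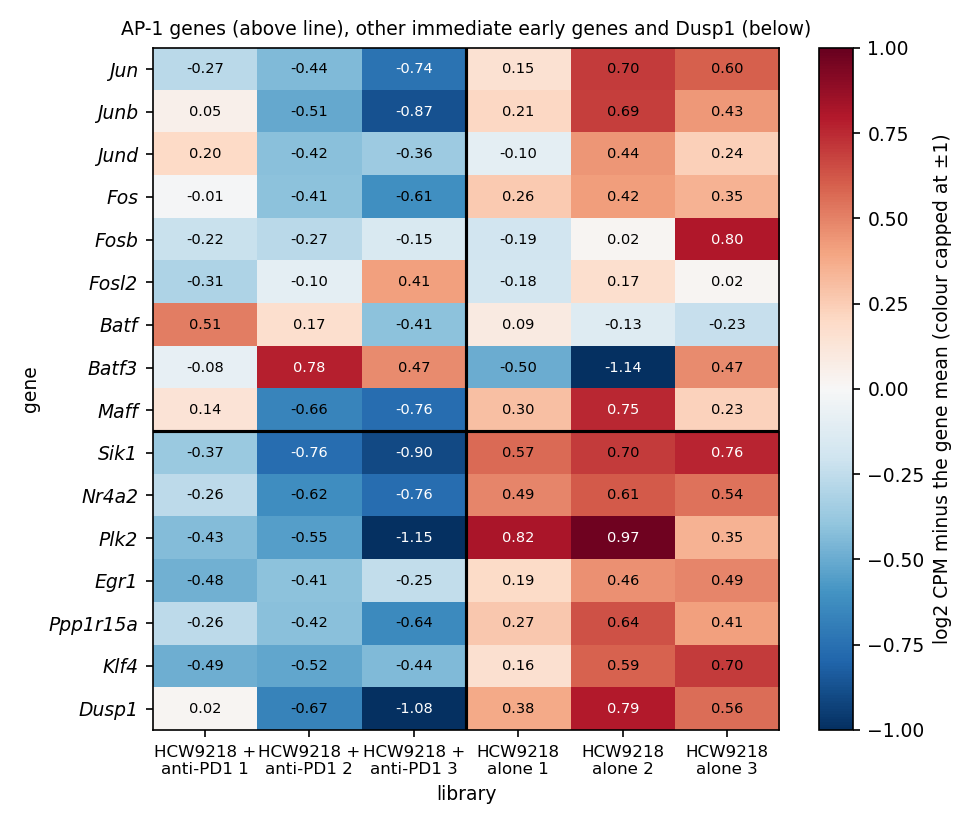
Log2 CPM minus each gene's mean over the 6 libraries, combination left and monotherapy right, for the 9 tested AP-1 subunit genes (above the line) and, below it, the 6 immediate early genes that fell and Dusp1. Jun reaches -0.74 in combination replicate 3 and 0.70 in monotherapy replicate 2, and each of the 6 immediate early genes is below 0 in every combination library.

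Upstream activators, which include MAP kinase cascade genes, PKC-theta and the SRF and CREB factors, gave 0 of 23 calls in edgeR and limma-voom. Of all tested genes, edgeR called 1.08%, and limma-voom called 0.0925% lower and 0.819% higher. In DESeq2 1 was higher (against 1.91% of all genes). The median log2 fold change was -0.03. At an unadjusted p under 0.05, 0 were lower, against 3.39% of all tested genes, and 1 was higher, against 4.61%. That gene was Map3k8, a kinase that activates MEK, with 29.8 ± 1.19 CPM in combination and 21.1 ± 1.18 CPM in monotherapy (0.50 ± 0.12, edgeR adjusted p = 0.136). Mapk8, which encodes JNK1 (-0.28 ± 0.16, adjusted p = 0.768), and Map2k4, a kinase that activates JNK (-0.22 ± 0.13, adjusted p = 0.804), did not pass. Relatives and partners of AP-1, which include NFAT and BACH factors, gave 0 calls among 15 tested of 17 genes in edgeR, limma-voom and DESeq2. The share called over all tested genes was 1.08% in edgeR. Their median was -0.09. At an unadjusted p under 0.05, 1 was lower, against 3.39% of all tested genes, and 2 were higher, against 4.61%. The leading members by p were Mafk, a small MAF gene (-0.40 ± 0.14, adjusted p = 0.428), Jdp2, a JUN dimerization protein gene (1.00 ± 0.44, adjusted p = 0.608), and Nfe2l2, which encodes NRF2 (0.28 ± 0.12, adjusted p = 0.619). Irf4, the partner of BATF, had a log2 fold change of -0.29 ± 0.17 (adjusted p = 0.779).

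Genes known as AP-1 targets in T cells gave 0 calls among 12 tested of 16 in edgeR and limma-voom, where edgeR called 1.08% of all tested genes. DESeq2 gave 1 higher (against 1.91% of all genes), and the median log2 fold change was -0.02. Of the 12, 4 had an unadjusted p under 0.05 in the higher direction, against 4.61% of all tested genes. These 4 include Csf2, which reached the count filter only through its combination libraries. Ccl4, a chemokine gene of activated CD8 T cells, had 8.30, 7.75 and 5.52 CPM in combination replicates 1, 2 and 3, against 3.48, 4.47 and 3.64 CPM in monotherapy replicates 1, 2 and 3 (0.89 ± 0.22, edgeR adjusted p = 0.133). Ccl3 (0.87 ± 0.32, adjusted p = 0.446) and Fasl (1.24 ± 0.46, adjusted p = 0.463) were also higher in each combination library. Csf2, at under 0.5 CPM in every library, had 0.486, 0.369 and 0.285 CPM in combination and 0.0557, 0.178 and 0.121 CPM in monotherapy replicates 1, 2 and 3 (1.64 ± 0.58, adjusted p = 0.391). Since it was tested only because of its combination values, its direction is not a result. Il2, Il21, Il3 and Mmp9 did not reach the count filter, and Il3 had no count in any library.

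Heat shock genes, read as a sign of stress in handling or in the cells, gave 2 calls higher among 11 tested of 12, against 0.951% of all tested genes, with a median log2 fold change of 0.24. These calls were lost, with 0 higher, with either covariate and without combination replicate 2 or any 1 monotherapy replicate. Hspa1a (3.14 ± 0.50, edgeR adjusted p = 0.0184) and Hspa1b (2.08 ± 0.38, adjusted p = 0.0344) differ so little in sequence that their separate read counts are uncertain. Hspa1b had 4.59, 8.41 and 13.4 CPM in combination replicates 1, 2 and 3, against 1.48, 2.52 and 2.24 CPM in monotherapy replicates 1, 2 and 3. Hspb1 did not reach the count filter. Hspa1b was highest in combination replicate 3, the library with the lowest CPM of Jun, Junb, Fos and Maff. The summed list went the other way, at 7239.5, 7464 and 5536 CPM in combination replicates 1, 2 and 3. In monotherapy replicates 1, 2 and 3 that sum was 6319, 5401 and 5716 CPM. Hsph1 (0.62 ± 0.15, adjusted p = 0.138) and Dnaja1 (0.50 ± 0.23, adjusted p = 0.631) did not pass. The part of heat shock in the AP-1 values was not tested.

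**Figure D5:**
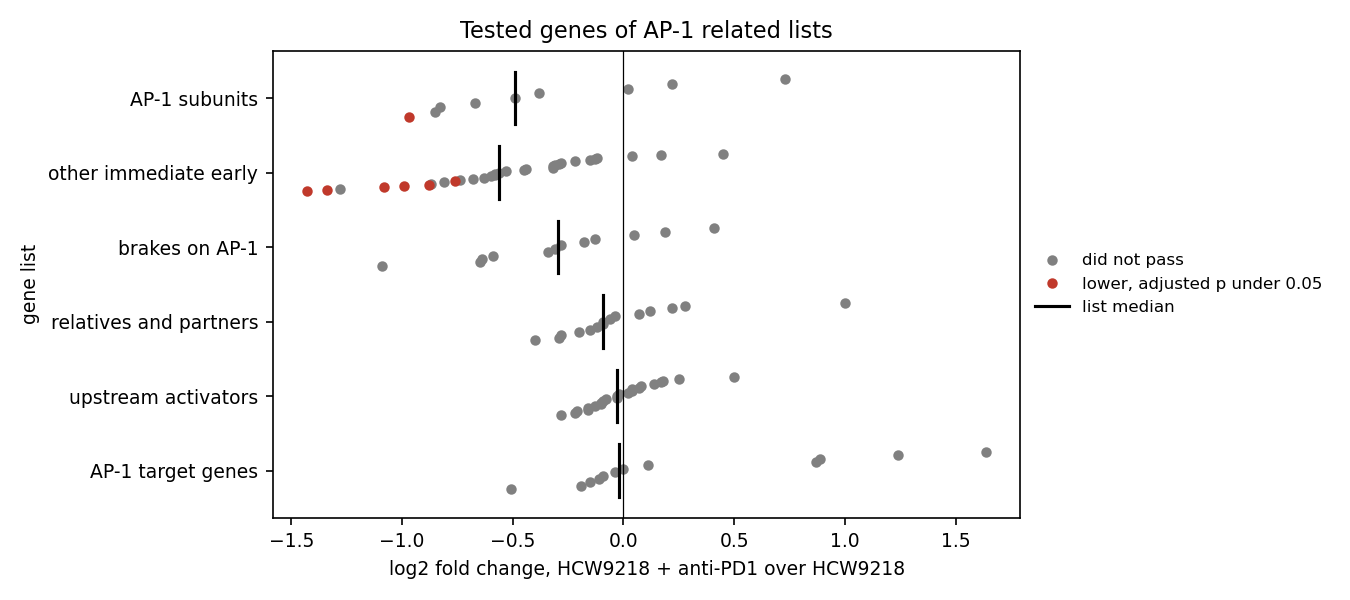
Log2 fold change (combination over monotherapy) of every tested gene in the AP-1 related lists, with 1 point per gene, a bar at the list median and called genes in red. Other immediate early genes have a median of -0.56 with 28 of 31 below 0, and upstream activators have a median of -0.03. The lists were chosen with earlier results of these data known.

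Likeness of pattern was measured over the 6 libraries as the root mean square difference of log2 CPM, each gene centred on its own mean, among 8058 genes averaging at least 10 CPM. The 5 genes most like Jun outside the AP-1 list were Ppp1r15a (0.104), Klf4 (0.166), Peg13 (0.171), Gadd45b (0.179) and Irs2 (0.186). Junb ranked 2 of the 8058 in likeness to Jun (0.161) and Fos ranked 8 (0.194), while Jund ranked 57, Fosb 304, Fosl2 5899 and Batf 6865. For Fos, the most alike were Zrsr1 (0.046), Tcta (0.088), Dusp6 (0.096), Csrnp1 (0.108) and Klf6 (0.112), and Junb ranked 27, Jun 55 and Jund 70. The measure covers differences between groups and between libraries of a group together.

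The subunit genes also differ in transcript features that the choice of members did not use. In the annotated transcript with the longest coding sequence (GENCODE M21), Jun, Junb and Jund have 1 exon each, Fos, Fosb, Fosl2 and Atf3 have 4, and Batf, Batf3 and Maff have 3. AU-rich ATTTA motifs, through which ZFP36 proteins shorten the life of many immediate early mRNAs, numbered 4 in the 3′ UTR of Jun, 4 in Fos, 4 in Maff, 8 in Fosl2, 3 in Atf3, 2 in Junb and 1 each in Jund and Fosb. Batf and Batf3 had 0. Per kilobase of 3′ UTR the order differs, with 4.89 in Fos, 4.10 in Junb, 3.27 in Maff, 3.24 in Jun, 2.52 in Atf3, 1.87 in Jund, 1.72 in Fosl2 and 0.466 in Fosb, since the 3′ UTR is 4656 bases long in Fosl2 and 488 bases in Junb. Of 21659 genes, 58.8% carried at least 1 ATTTA and 23.8% at least 4. The longer TTATTTATT was present in Fos, Fosl2 and Maff and in 6.59% of genes. These motif counts describe the annotation, and mRNA stability was not measured.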

How the data were processed

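Bulk RNA was sequenced from 6 libraries of CD8+ T cells, 3 mice per group by the series design; p-values measure the spread between these mice. Trizol extraction, oligo(dT) enrichment and the NEBNext Ultra II kit were used, per the labels' protocols. The tools were DESeq2, featureCounts, STAR 2.5.2b and Subread 1.5.2, per the submitters' processing notes. Not given in the sources used here are their settings, the strand use, the annotation and the genome build. The deposited counts are whole reads per gene, not normalized, and gene lengths come from the same files. The series table has 6 more columns that no sample label matched; these were left out, as were the deposited normalized and log tables. Of 49315 genes, 91.4% of those found in GENCODE M21 (GRCm38) had identical coordinates, as did 9 of the 10 subunit genes; Maff differed. Strand use being unknown, a gene and one that overlaps it on the other strand cannot be told apart.

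Counts were fitted in R 4.3.3 with edgeR 4.0.16 (filterByExpr, TMM factors 0.901 to 1.12, glmQLFit and glmQLFTest, no covariate), with limma 3.58.1 and DESeq2 1.42.0 as alternatives, and the edgeR step was tested on simulated data. The SE was taken as the unshrunken log2 fold change over the root of its F statistic. Depth was 34568074 to 40101346 counts per library. Named genes were all 10 subunits, every gene called in the other lists, otherwise up to 4 with the smallest p per list, and the 5 genes most like Jun and Fos; 1 gene that this rule names is not reported here. The genes and lists were chosen with earlier results of these data known. Whether replicate numbers pair the libraries is not known, and the main test has no block. Alternatives were other scalings, filters, tests, covariates, a replicate block and leaving out libraries. Promoters are from RefSeq (GRCm38.p6), with a window for all 10 genes. No 2 libraries were duplicates.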

Additional observations from a re-analysis of the deposited data

How the results depend on the processing

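Against 144 genes higher and 20 lower in edgeR, with 1 subunit gene lower and 0 higher, the counts were 340 and 113 with 3 subunit genes lower without the count filter, and 284 and 73 with 3 lower in DESeq2. With the B cell covariate they were 59 and 5, and with the Dct and Tyrp1 covariate 99 genes were lower; both fits, and limma-voom, left 0 subunit genes lower. Without combination replicates 2 and 3, 834 genes were higher and 628 lower, and 1 subunit gene (Batf) was higher; 1 combination library then remains, assumed to vary like the others. Leaving out 1 library at a time gave 32 to 233 genes higher, 2 to 49 lower and 0 to 3 subunit genes lower. The cause of these shifts was not tested. With the replicate number as a block, 231 genes were higher and 57 lower, with 2 subunit genes lower (Jun and Fos). Same-numbered libraries correlated at 0.15, -0.06 and 0.28 in their deviations from the group means. Different-numbered libraries correlated at -0.23 to 0.12. With 3 libraries a group these values cannot decide whether the numbers pair the libraries. Fosl2 turned below 0 with the block (-0.000158), the Dct and Tyrp1 covariate (-0.33), the B cell covariate (-0.04), without combination replicate 3 (-0.21, the lowest on leaving out 1 library, against 0.19 at the highest), without monotherapy replicate 1 (-0.04) and without combination replicates 2 and 3 (-0.33). Jun, Junb, Jund, Fos, Fosb and Maff stayed below 0 in all 17 alternatives. The Jun to Jund and Batf to Fos ratios kept their directions on leaving out each library (-0.71 to -0.49 and 0.80 to 1.01). Depth limits Batf3 and Atf3, and 3 mice a group limit every gene with a wide spread.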
